A study of Mus musculus with 22 samples.

Results

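Palatal mesenchyme cells stimulated with PDGF for 1 hr under a MEK inhibitor were compared with the same cells stimulated under a PI3K inhibitor. An entry of the table (a gene, or a group of genes counted as one) was included when its FPKM, fragments per kilobase of transcript scaled to the total of mapped fragments, was above 1 in either condition, and 11714 of 23286 entries were. The conditions hold 4 of the 22 samples of the series, 2 with each inhibitor. MEPM cells come from the palatal shelves of mouse embryos at E13.5 and were used at passage 2 from wild-type C57B/6 embryos, with independent litters for each set of replicates. After a night in 0.1% serum, one set was given PD325901 at 1 uM, which inhibits MEK, and the other LY294002 at 10 uM, which inhibits PI3K. Both drugs were added 30 min before PDGFA at 30 ng/mL. They are called PD and LY from here on. Each condition has 1 pooled FPKM per gene and not 1 value per sample, so no spread between replicates could be calculated and no test was run. Ratios of PD over LY compare the 2 drug conditions with each other. PDGF without a drug at 1 hr was not used here, so a gene that is higher with PD may be raised under PD or lowered under LY, and the 2 cannot be told apart from the ratio alone.

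PDGF receptors are tyrosine kinases that pass their signal on through several routes. In one, Ras and RAF activate MEK, which phosphorylates ERK, and ERK switches on immediate early genes such as *Egr1* and *Fos* together with inhibitors of its own pathway. In the other, PI3K makes a membrane lipid that activates Akt, which keeps FOXO transcription factors out of the nucleus and, with mTOR, favours lipid synthesis and growth.

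The cells expressed the genes of mesenchyme in both conditions. All 10 palatal mesenchyme markers were above 1 FPKM, with a summed level of 5277 FPKM with PD and 6897 with LY, and *Prrx1*, a homeobox gene of craniofacial mesenchyme, was at 277 and 301 FPKM. Markers of other cell types were low. None of 6 markers of macrophages and other blood cells was above 1 FPKM, 1 of 8 of epithelium was (*Krt18*, at most 1.91 FPKM), 2 of 7 of endothelium (*Kdr*, at most 3.14), and 1 of 8 of skeletal muscle (*Acta1*, at most 17.2). Of 8 neural and glial genes 5 were above 1 FPKM. The highest of them were *Stmn2* at 65.4 FPKM with PD and 62.2 with LY and the tubulin gene *Tubb3* at 31.1 and 9.66, while the glial gene *Sox10* (0.631 and 1.10) was near the limit. The part of such cells in the ratios below was not tested.

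At 1.5-fold or more, 1038 entries were higher with PD (8.86% of those compared) and 727 were lower (6.21%). At 2-fold or more, 372 were higher (3.18%) and 226 lower (1.93%). The median log2 ratio over all entries was 0.0045, so the centre of the ratios lay close to 0. As a scale for these counts, 2 conditions that share a drug and differ in ligand can be used. PDGF over FGF differed by 1.5-fold or more in 5.41% of entries under PD and in 6.90% under LY, against 15.1% for PD over LY with PDGF. Reference genes were level, with 0 of 9 measured ones past 1.5-fold and a median log2 ratio of 0.03. *Gapdh* (0.301 FPKM with PD and 0.271 with LY) and *Ppia* (0.195 and 0.341 FPKM), which most cells express strongly, were under the limit, so a low FPKM in this table need not mean a low transcript level. Of 28 entries with a log2 ratio beyond 5 in size, 13 were microRNA and small nucleolar RNA entries and 23 were listed at 0 in 1 condition.

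**Figure D1:**
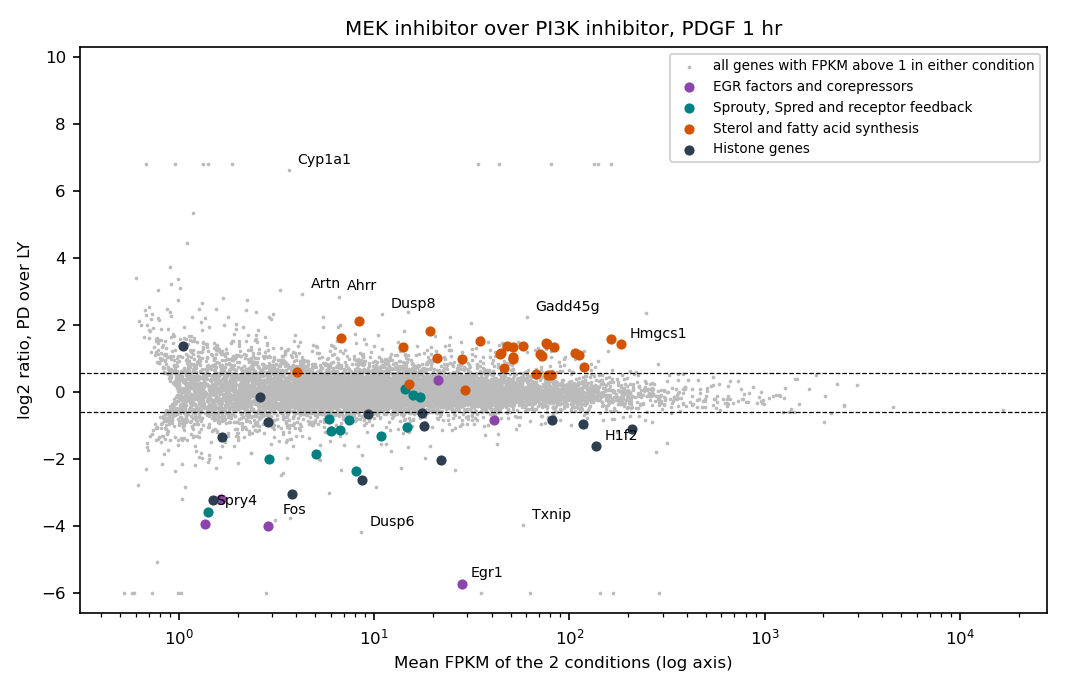
Each point is a gene with 1 symbol, by its mean FPKM of the 2 conditions (log axis) and its log2 ratio of PD over LY at 1 hr of PDGF, with ratios beyond the plotted range drawn at its edge, dashed lines at 1.5-fold and 4 gene lists in colour. EGR and Sprouty genes lie mostly below the lower line, with Egr1 at -5.71, sterol genes mostly above the upper one, and the spread of all genes narrows as the FPKM rises.

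Genes with low ratios included immediate early genes and brakes of the ERK pathway. *Egr1*, a zinc finger factor and a standard readout of ERK activity, had 1.05 FPKM with PD and 55.3 FPKM with LY, a 52.5-fold difference. Its relatives *Egr2* (0.167 and 2.55 FPKM) and *Egr3* (0.338 and 5.41 FPKM) were 15.3-fold and 16.0-fold lower with PD. *Arc*, a neuronal immediate early gene that EGR factors also control, had 0.322 FPKM with PD and 2.96 with LY. The corepressor of EGR factors *Nab2* was 1.77-fold lower with PD, at 29.7 and 52.5 FPKM, and *Nab1* was level within 1.5-fold at 23.9 and 18.4. Values of *Nab2* are uncertain, since 37.9% of the 31-base words of its transcripts also occur in other genes. In all, 5 of the 6 measured members of the EGR list were lower with PD and none was higher, with a median log2 ratio of -3.57.

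SRF is a transcription factor that binds the CArG box and, with ERK-activated partners, drives many immediate early genes. Windows of 300 bases around a transcription start (250 before it and 50 after it) are shown for 3 genes that hold a CArG box, *Egr2* and *Dusp5*, both lower with PD, and *Zfp36*, which was within 1.5-fold. Capitals mark the box. The sequences are RefSeq's, from the GRCm38.p6 build (the same as mm10), 5′ to 3′ on the gene's strand.
Egr2, chr10:67537316-67537615 (+): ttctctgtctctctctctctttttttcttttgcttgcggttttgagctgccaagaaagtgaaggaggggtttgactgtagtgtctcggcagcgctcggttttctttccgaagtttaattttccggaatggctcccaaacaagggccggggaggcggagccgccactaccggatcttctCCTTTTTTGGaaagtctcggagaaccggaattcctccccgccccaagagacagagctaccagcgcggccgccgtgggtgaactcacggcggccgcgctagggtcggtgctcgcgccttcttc
Dusp5, chr19:53528895-53529194 (+): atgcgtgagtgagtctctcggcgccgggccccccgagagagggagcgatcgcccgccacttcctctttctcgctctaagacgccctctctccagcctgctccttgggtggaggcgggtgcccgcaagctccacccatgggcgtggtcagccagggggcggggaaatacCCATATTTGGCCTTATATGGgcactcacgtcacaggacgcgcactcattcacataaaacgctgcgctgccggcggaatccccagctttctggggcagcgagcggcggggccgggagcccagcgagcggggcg
Zfp36, chr7:28379179-28379478 (-): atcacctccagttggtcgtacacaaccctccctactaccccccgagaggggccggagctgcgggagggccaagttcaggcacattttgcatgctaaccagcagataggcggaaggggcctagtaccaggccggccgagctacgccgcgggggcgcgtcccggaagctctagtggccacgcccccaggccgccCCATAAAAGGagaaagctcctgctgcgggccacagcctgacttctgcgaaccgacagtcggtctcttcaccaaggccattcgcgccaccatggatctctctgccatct
The box starts 72 bases before the start of *Egr2* and 58 bases before that of *Zfp36*, and the *Dusp5* window holds 2, at 82 and 72 bases. A match of letters is a description and does not show that SRF binds there. The windows of *Fos*, *Dusp6*, *Spry2* and *Nab2*, all lower with PD, hold no CArG box. That of *Arrdc4*, also lower, does. The box is also in windows of *Fhl2*, *Filip1l*, *Herpud1* and *Cyp1a1*, all higher with PD. Among genes with FPKM of at least 5, it was in 3.71% of windows of those higher with PD and 1.02% of those lower.

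Negative feedback genes of receptor tyrosine kinases were lower with PD as a group. Sprouty and Spred proteins block Ras and RAF, and 10 of the 13 measured members of the feedback list were lower with PD, 0 were higher, and the median log2 ratio was -1.13. *Spry4* had 0.222 FPKM with PD and 2.60 with LY, *Spry2* had 2.68 and 13.5, and *Spry1* had 6.22 and 15.4. *Spred1* (9.67 and 19.7 FPKM), *Spred2* (4.20 and 9.16) and *Spred3* (4.31 and 7.46) followed with smaller differences. *Il17rd*, also called Sef, which holds back ERK signalling, was at 3.74 FPKM with PD and 8.34 with LY. *Errfi1*, an inhibitor of the EGF receptor, was at 5.35 and 9.56, *Phlda1* at 2.21 and 7.89, and *Socs3*, a brake on cytokine receptors, at 1.16 and 4.63. The receptor regulators *Lrig1* and *Lrig3* and the Ras GTPase activator *Rasa1* were within 1.5-fold.

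Phosphatases that switch off MAP kinases lay on both sides. Of 4 ERK phosphatases 3 were lower with PD and 1 was higher. *Dusp6*, which removes phosphate from ERK in the cytoplasm, had 0.891 FPKM with PD and 16.2 with LY, 18.2-fold lower. The nuclear phosphatases *Dusp4* (2.60 and 6.71 FPKM) and *Dusp5* (1.96 and 4.19 FPKM) were also lower, whereas *Dusp7* was higher, at 13.4 and 7.20. Of 5 measured phosphatases of JNK and p38, 4 were higher with PD, with a median log2 ratio of 0.81, and this difference between the lists was not tested. *Dusp8*, which acts on JNK and p38, had 18.3 FPKM with PD and 3.65 with LY, 5.03-fold higher. *Dusp16* (11.7 and 6.20 FPKM), *Dusp14* (10.5 and 6.02) and *Dusp10* (11.2 and 7.12) were higher to a lesser degree, and *Dusp1* stayed within 1.5-fold at 28.3 and 35.8. Of 3 ETS factors of the ETV family, which ERK activates downstream of growth factors, 2 were lower with PD. *Etv5* had 5.56 FPKM with PD and 16.2 with LY, *Etv1* had 0.669 and 1.68, and *Etv4*, at 3.12 and 4.67, fell just short of 1.5-fold.

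The components of the pathway itself were level. Of 20 measured genes of Ras, RAF, MEK, ERK and their adaptors, 0 were past 1.5-fold, and their log2 ratios ran between -0.20 and 0.56. *Map2k1*, which encodes MEK1, was at 47.2 FPKM with PD and 41.2 with LY.

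The AP-1 genes did not move together. AP-1 is a dimer of FOS and JUN family proteins, and the list used also holds the partners *Atf3*, *Maff*, *Mafg* and *Mafk*. Of its 11 measured members 4 were higher with PD, 1 was lower and 6, among them the 3 MAF genes, were within 1.5-fold. *Fos* was the member that was lower, at 0.408 FPKM with PD and 5.77 with LY, 14.2-fold. *Jun*, whose protein is the substrate that named JNK, was higher with PD, at 94.0 and 47.7 FPKM. *Fosl2* (94.5 and 39.1 FPKM), *Atf3* (41.2 and 14.7), a stress-induced partner of JUN, and *Fosl1* (4.03 and 2.27) were higher as well. *Junb* (20.1 and 22.0 FPKM), *Jund* (63.1 and 47.8) and *Fosb* (1.69 and 1.29) were not past 1.5-fold. Values of *Fosl1* and *Jund* are uncertain, since 54.5% and 50.1% of the 31-base words of their transcripts also occur in other genes. In absolute terms the most abundant FOS family transcript was therefore *Fosl2* in both conditions, on a scale of FPKM that corrects for length.

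**Figure D2:**
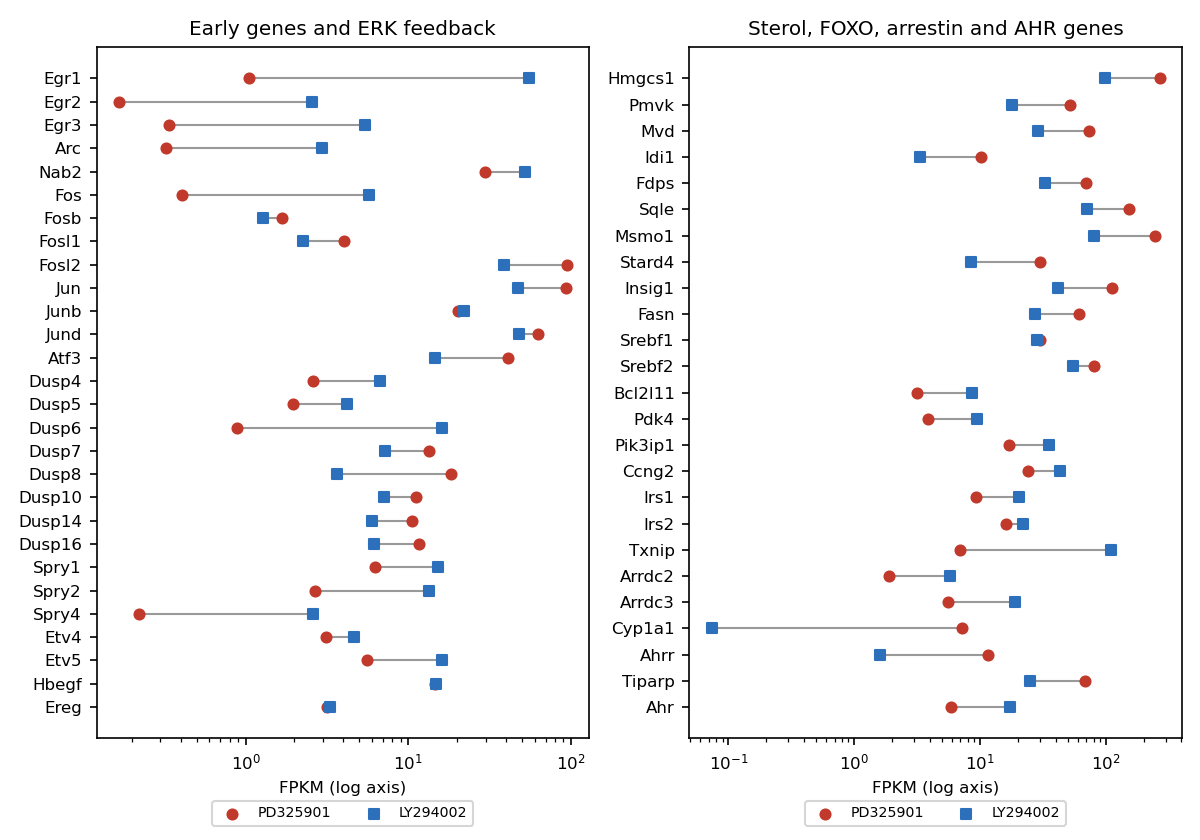
FPKM (log axis) of genes named in the text with PD (red circles) and with LY (blue squares), each a pooled value of 2 samples, joined by a grey line. The circle lies left of the square for Egr1 to Fos, Dusp4 to Dusp6, the Sprouty genes and Txnip, and right of it for Jun, Dusp8 and the sterol genes.

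Other immediate early genes lay on both sides. Of 21 NR4A, KLF and IER genes, 6 were higher with PD and 3 lower. *Npas4*, an early factor of neurons, had 5.85 FPKM with PD and 0.709 with LY, *Csrnp1* had 12.2 and 3.68, and *Gem*, a small GTPase that blocks calcium channels, had 4.79 and 2.17. *Ier2* (9.23 and 21.0 FPKM) and the nuclear receptor *Nr4a1* (37.5 and 73.4 FPKM) were lower with PD. Among regulators of mRNA decay, *Zfp36l2* was 3.90-fold lower with PD, at 7.46 and 29.1 FPKM, and *Btg1* was lower at 19.0 and 37.1. *Zfp36* (17.7 and 12.7 FPKM) and *Zfp36l1* (36.0 and 49.9) did not reach 1.5-fold. *Myc*, a driver of growth, was 1.60-fold lower with PD, at 6.06 and 9.67 FPKM. The 3 measured ligands of the EGF receptor were within 1.5-fold, and *Hbegf* had 14.7 FPKM with PD and 14.8 with LY, and *Ereg* had 3.17 and 3.31.

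Genes induced at 1 hr were taken from a list in the study, made on samples other than those with an inhibitor. Most of its genes were called in the study with FGF and not with PDGF, so the list is not balanced between the ligands. It gave 108 measured members. Of these 22 were higher with PD, 23 were lower and 63 were within 1.5-fold, with a median log2 ratio of -0.08. On the low side the ratios largest in size among these were those of *Egr1*, *Dusp6*, *Egr3*, *Egr2*, *Fos*, *Spry4* and *Arc*. On the high side were *Pard6b*, a cell polarity gene (2.96 and 0.890 FPKM), *Csrnp1*, *Ankrd1* (19.5 and 6.98 FPKM), *Atf3*, *Insig1* (112 and 41.4 FPKM), *Nppb*, which encodes a natriuretic peptide (4.11 and 1.54 FPKM), and *Ptgs2*, which encodes the prostaglandin enzyme COX-2 (45.1 and 18.3 FPKM). *Plaur*, the receptor of urokinase, was at 26.4 FPKM with PD and 11.0 with LY. *Plau*, urokinase itself, was at 42.1 and 21.5. Of the 5 measured plasminogen genes 3 were higher with PD, and *Plat*, the tissue activator, was lower at 22.9 and 37.8 FPKM.

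Sterol synthesis had the largest share of members higher with PD among the lists. Of 31 measured genes of sterol and fatty acid synthesis, 26 were higher with PD and 0 lower, with a median log2 ratio of 1.13 and no member below 0.07. These genes are switched on by SREBP factors when sterols are short and when Akt and mTOR are active. All listed steps of the mevalonate pathway, from *Hmgcs1* to *Fdps*, were among them. *Hmgcs1*, which makes HMG-CoA, had 268 FPKM with PD and 99.4 with LY. *Pmvk* (52.1 and 18.0 FPKM), *Mvd* (74.1 and 29.1), *Idi1* (10.1 and 3.33) and *Fdps* (69.3 and 33.2) form later steps. In the later part of the pathway, *Sqle* was at 153 FPKM with PD and 70.5 with LY and *Msmo1* at 244 and 81.0. The sterol carrier gene *Stard4* moved the same way, at 30.2 FPKM with PD and 8.42 with LY. Of fatty acid genes, *Fasn* (61.6 and 27.5 FPKM) and *Scd1* (97.6 and 46.6) were higher with PD. The factors themselves differed less, with *Srebf1* at 29.8 FPKM with PD and 28.3 with LY and *Srebf2* at 80.6 and 54.9, both under 1.5-fold. The *Hmgcs1* promoter window holds a sterol element, searched as TCACNCCAC on both strands and marked in capitals, 137 bases before the start.
Hmgcs1, chr13:119690101-119690400 (+): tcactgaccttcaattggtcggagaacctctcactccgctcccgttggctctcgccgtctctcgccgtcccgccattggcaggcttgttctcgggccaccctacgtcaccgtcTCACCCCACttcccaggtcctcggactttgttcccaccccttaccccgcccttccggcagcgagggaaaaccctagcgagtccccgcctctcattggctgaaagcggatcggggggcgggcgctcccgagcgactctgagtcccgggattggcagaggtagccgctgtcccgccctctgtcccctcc

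FOXO targets lay on the low side, in smaller number. Of 20 measured FOXO factors and targets, 4 were lower with PD and 0 higher, with a median log2 ratio of -0.28. *Bcl2l11*, which encodes the death-promoting protein BIM, had 3.17 FPKM with PD and 8.71 with LY. *Pdk4*, a kinase that turns cells away from glucose oxidation, had 3.84 and 9.53, *Pik3ip1*, an inhibitor of PI3K, had 16.9 and 35.3, and the cyclin gene *Ccng2* had 24.2 and 43.4. *Irs2*, an adaptor of the insulin receptor, was 1.38-fold lower with PD, at 16.0 and 22.2 FPKM. The FOXO genes themselves were level, *Foxo3* at 21.7 FPKM with PD and 22.4 with LY.

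*Txnip* had 7.00 FPKM with PD and 109 with LY, 15.6-fold lower. It encodes an alpha-arrestin that limits glucose uptake and binds thioredoxin. Other alpha-arrestins, taken as a list after their values had been seen, were lower too: *Arrdc3* at 5.57 and 18.9 FPKM, *Arrdc2* at 1.90 and 5.78, and *Arrdc4* at 4.82 and 7.53, while *Arrdc1* was within 1.5-fold. Promoter windows of *Txnip* and *Bcl2l11* are shown because each holds a forkhead site, the letters that FOXO and other forkhead factors prefer, searched as TGTTTAC on both strands and marked in capitals.
Txnip, chr3:96557707-96558006 (+): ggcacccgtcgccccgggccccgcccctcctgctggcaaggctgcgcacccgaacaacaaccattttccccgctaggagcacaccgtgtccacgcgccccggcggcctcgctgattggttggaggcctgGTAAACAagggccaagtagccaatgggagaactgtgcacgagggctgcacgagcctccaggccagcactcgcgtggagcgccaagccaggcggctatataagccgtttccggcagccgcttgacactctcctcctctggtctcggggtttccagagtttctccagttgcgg
Bcl2l11, chr2:128125788-128126087 (+): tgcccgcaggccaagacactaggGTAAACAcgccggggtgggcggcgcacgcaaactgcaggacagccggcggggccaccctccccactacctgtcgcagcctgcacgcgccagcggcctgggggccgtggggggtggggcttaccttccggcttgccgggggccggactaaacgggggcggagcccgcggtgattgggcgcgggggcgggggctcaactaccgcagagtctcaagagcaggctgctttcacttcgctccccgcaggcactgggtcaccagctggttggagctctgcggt
The site starts 121 bases before the start of *Txnip* and 227 bases before that of *Bcl2l11*. The windows of *Pdk4*, *Pik3ip1*, *Ccng2*, *Arrdc2*, *Arrdc3* and *Arrdc4* do not hold it. Of 22 windows of FOXO factors and targets, 3 do. These letters do not show that a FOXO factor binds there.

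Within the insulin and PI3K pathway, 3 of 32 measured genes were higher with PD and 2 lower. These counts are near the shares over all entries, 8.86% higher and 6.21% lower, so the list did not stand out from them. *Ddit4*, which inhibits mTOR and is induced by stress, had 65.5 FPKM with PD and 25.8 with LY. *Irs1*, an adaptor of the insulin and IGF receptors, had 9.29 and 20.6, and *Igfbp3*, which binds IGF, had 79.7 and 163. *Akt1* was level at 153 and 150.4 FPKM. Of 17 genes of glucose uptake and glycolysis 3 were higher with PD, all of them regulated steps: *Pfkfb4* (2.83 and 0.973 FPKM), *Pfkfb3* (8.37 and 3.58) and hexokinase *Hk2* (8.30 and 3.86). Of 26 ATF4 target genes of amino acid supply and stress, 7 were higher and 1 lower. *Chac1*, which degrades glutathione, had 53.5 FPKM with PD and 17.0 with LY, and *Trib3* had 39.5 and 17.1. *Ddit3*, which encodes CHOP, was the one that was lower, at 107 and 190.5.

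**Figure D3:**
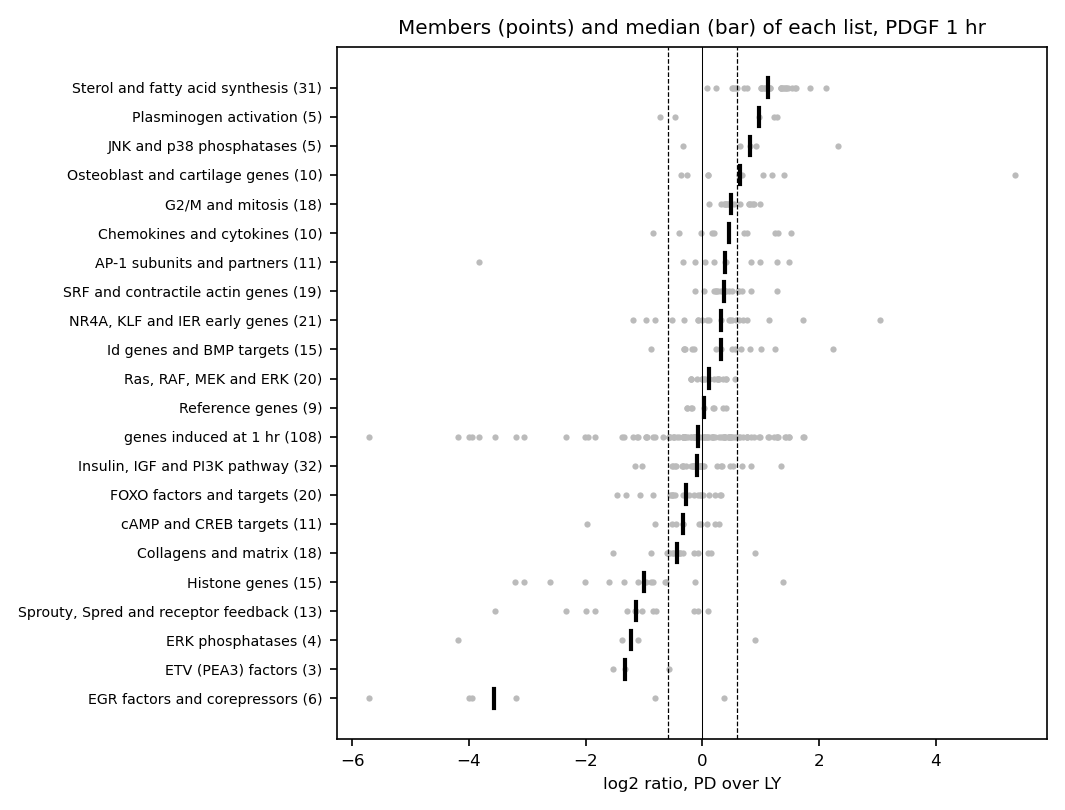
Log2 ratios of PD over LY at 1 hr of PDGF for the members (points) and the median (bar) of lists whose median is at least 0.3 in size, with 5 other lists for reference, the number of measured members in parentheses and dashed lines at 1.5-fold. Medians run from -3.57 for EGR genes to 1.13 for sterol genes, and the 108 genes induced at 1 hr spread to both sides of 0.

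Of 46 gene lists compared, 10 had a median log2 ratio of 0.3 or more and 7 of -0.3 or less. The histone list was among the latter: 13 of 15 measured members were lower with PD, 1 was higher, and the median was -1.01. The list also holds *Hexim1*, which is not a histone gene, so these counts are those of the list. Linker histone *H1f2*, formerly Hist1h1c, had 67.8 FPKM with PD and 206 with LY, *H1f0*, a linker histone of resting cells, had 58.6 and 105, and *H3f3b*, a variant made outside S phase, had 132 and 286. The linker histones *H1f1* (0.291 and 2.71 FPKM) and *H1f3* (0.818 and 6.77 FPKM) and the core histones *H4c9* (8.73 and 35.1 FPKM) and *H2bc8* (2.42 and 14.8 FPKM) were lower too. *H4c14*, which is not on the list, was listed at 0 with PD and at 5.57 FPKM with LY. Values of *H2bc8* and *H4c9* are uncertain, since 56.3% and 35.6% of their 31-base words also occur in other genes. The shares were lower for *H1f2* (11.4%), *H1f3* (3.72%), *H4c14* (2.56%) and *H1f1* (0.281%). They are taken over all words of all transcripts of a gene, for *H1f3* 275 of 7395. A low share therefore need not mean that the values are certain. Most histone mRNAs of S phase end in a stem-loop and not in a poly-A tail. RNA was selected by poly-A tail, and the part of this step in the histone values was not tested.

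Genes of G2 and mitosis were shifted the other way, with 7 of 18 higher with PD, 0 lower and a median log2 ratio of 0.49. *Cdc20*, which triggers anaphase, had 15.1 FPKM with PD and 7.69 with LY, the mitotic kinase *Plk1* had 7.75 and 4.21, and *Aurkb* had 5.46 and 3.07. Among genes of DNA replication 2 of 19 were higher and 0 lower, with a median of 0.29. That share of higher genes is near the 8.86% of all entries. *Cdkn2a*, a cell cycle inhibitor, was lower with PD at 97.5 and 149 FPKM.

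Targets of the aryl hydrocarbon receptor AHR were higher with PD. AHR is a receptor of planar aromatic compounds that binds DNA with ARNT. The list was drawn up after *Cyp1a1* and *Ahrr* had been seen among the largest ratios, so its counts are a description only. *Cyp1a1*, the best known target and a P450 enzyme, had 7.27 FPKM with PD and 0.0739 with LY, 98.3-fold. *Ahrr*, which encodes the repressor that AHR induces, had 11.6 and 1.61, *Tiparp* had 68.0 and 24.9, and *Nqo1* had 80.3 and 28.6. *Cyp1b1* was within 1.5-fold at 199.5 and 151.9 FPKM, and the receptor gene *Ahr* was 2.90-fold lower with PD, at 5.93 and 17.2. *Nqo1* is also a target of NRF2, the oxidative stress factor, and in a list of NRF2 targets also drawn up after values had been seen 6 of 10 were higher with PD, among them *Hmox1* (141 and 71.6 FPKM). With FGF 2 of the 10 were higher and 2 lower. The *Ahrr* window holds an AHR site, searched as TNGCGTG on both strands and marked in capitals, 29 bases before the start. The *Cyp1a1* window of 300 bases does not hold these letters.
Ahrr, chr13:74292282-74292581 (-): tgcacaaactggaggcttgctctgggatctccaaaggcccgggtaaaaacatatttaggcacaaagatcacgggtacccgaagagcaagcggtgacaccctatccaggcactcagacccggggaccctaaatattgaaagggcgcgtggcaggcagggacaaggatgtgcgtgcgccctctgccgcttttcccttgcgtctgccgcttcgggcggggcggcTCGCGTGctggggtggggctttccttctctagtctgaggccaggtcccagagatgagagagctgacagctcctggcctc

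Other genes with large ratios on the high side had various roles. Neurotrophic factors were listed after their values had been seen, and 4 of 5 measured ones were higher with PD. *Artn* (7.58 and 1.00 FPKM) and *Gdnf* (5.05 and 1.01 FPKM) encode ligands of the receptor RET, and *Ntf3* (5.16 and 2.10 FPKM) encodes a neurotrophin. *Bdnf* was within 1.5-fold at 23.5 and 20.1. *Nog*, an antagonist of BMP ligands, had 9.06 FPKM with PD and 1.93 with LY, and *Gdf15*, a stress-induced hormone, had 10.7 and 2.66. *Gadd45g* (100.1 and 21.0 FPKM) and *Sfn* (25.0 and 4.74 FPKM) are stress genes that restrain the cell cycle. *Rgs4*, which turns off G proteins, had 50.9 and 12.2.

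Genes of palate patterning did not shift as a group. Of 22 measured palatal transcription factors 5 were higher with PD and 3 lower, and the median was 0.00. *Osr1*, a zinc finger factor of palatal and limb mesenchyme, had 72.3 FPKM with PD and 30.0 with LY, and *Mn1*, needed for palate growth, had 26.9 and 12.2. *Pax9*, whose loss causes cleft palate in mice, went the other way with 9.64 and 29.2 FPKM, 3.03-fold lower with PD. *Osr2* (4.24 and 6.51 FPKM) and *Tbx2* (10.2 and 18.1 FPKM) were lower as well. Among differentiation genes, *Id2* had 33.9 FPKM with PD and 14.3 with LY whereas *Id1* had 12.7 and 23.6, and *Id3* was level at 69.3 and 78.8. These ID proteins bind and block basic helix-loop-helix factors. *Col2a1*, the collagen of cartilage, had 57.7 and 25.3, and 6 of 10 measured skeletal genes were higher with PD, most of them at low levels such as *Alpl* at 1.20 and 0.454 FPKM. Some of these, *Alpl* among them, were above 1 FPKM only with PD, so they could not have been counted as lower. The count is therefore partly set by the FPKM limit, and the list median was smaller at a higher minimum.

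Of 18 measured matrix genes 5 were lower with PD, 1 was higher and 12 were within 1.5-fold, with a median log2 ratio of -0.43. *Postn*, a matrix protein of connective tissue, had 1403 FPKM with PD and 2604 with LY, *Col1a2* had 1725 and 2626, *Col3a1* had 1058 and 1593, and *Eln*, elastin, had 21.6 and 63.0. *Has2*, which makes hyaluronan, was the gene that was higher, at 18.3 and 9.84. Of 19 contractile and actin genes 5 were higher and 0 lower, with a median of 0.37, for example *Filip1l* (107.5 and 44.4 FPKM) and *Actg2* (165 and 92.6 FPKM).

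The same contrast was available with FGF at 1 hr and with PDGF at 4 hr, in samples not shared with the comparison above. With FGF1 at 50 ng/mL and heparin at 1 ug/mL, 12.0% of entries were higher with PD and 7.78% lower, and among entries of at least 5 FPKM 8.86% and 6.63%. Of the entries higher with PD under PDGF, 663 were also higher under FGF, 63.9% of the PDGF list and 46.9% of the FGF list. Of those lower, 339 were lower under FGF, 46.6% and 37.0% of the lists. Entries past 1.5-fold in opposite directions numbered 25 and 22. Over 9083 genes, Pearson's r between the log2 ratios was 0.757 and Spearman's rho 0.73, across genes, which are not independent replicates.

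The genes induced at 1 hr, a list made mainly from calls with FGF, had lower ratios with FGF than with PDGF. With FGF, 65 of 109 measured genes induced at 1 hr were lower with PD, against 23 of 108 with PDGF, and the medians were -0.08 with PDGF and -0.80 with FGF. *Junb* had 20.1 FPKM with PD and 22.0 with LY after PDGF, and 23.5 and 137 after FGF. *Hbegf* had 14.7 and 14.8 after PDGF, and 21.2 and 132 after FGF. *Sgk1*, a kinase gene related to Akt, had 24.4 and 26.6 after PDGF, and had a log2 ratio of -3.16 after FGF. *Fosb* (1.69 and 1.29 FPKM after PDGF) had 1.28 and 18.2 after FGF. In *Junb*, *Hbegf* and *Fosb* the values with PD were within 1.5-fold between the ligands, and those with LY were higher after FGF. *Egr1* had a lower ratio with FGF as well, at 1.56 and 395 FPKM. The difference between ligands could not be tested with 1 value per condition.

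**Figure D4:**
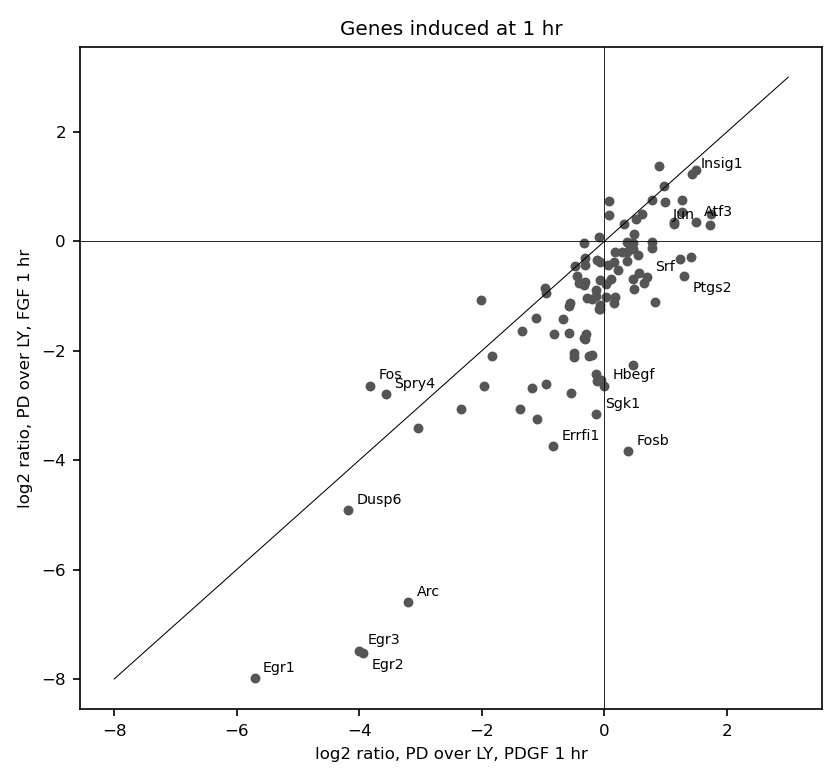
Log2 ratio of PD over LY for genes induced at 1 hr, with PDGF on the horizontal axis and FGF on the vertical axis, 1 point per gene, and a diagonal line of equal ratios. Most points lie below the diagonal, with Egr1 at -5.71 and -7.98 and Hbegf at -0.01 and -2.64, while Fos at -3.82 and -2.64 lies above it.

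Sterol genes were alike with both ligands: 28 of 31 were higher with PD after FGF, 0 were lower, and the medians were 1.13 with PDGF and 1.22 with FGF. The JNK and p38 phosphatases were alike in part. *Dusp8* was higher with PD after both ligands, with log2 ratios of 2.33 and 2.84, as was *Dusp16* (0.92 and 1.20). *Dusp14* was higher after PDGF (0.81) and within 1.5-fold after FGF (0.39), and *Dusp10* was higher after PDGF (0.65) and lower after FGF (-0.76). *Cyp1a1* had log2 ratios of 6.62 with PDGF and 5.83 with FGF, and *Tiparp* of 1.45 and 0.28.

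At 4 hr of PDGF 12.8% of entries were higher with PD and 6.97% lower, and 504 of the entries higher with PD at 1 hr were still higher, 48.6% of the 1 hr list and 33.4% of the 4 hr list, and 246 of those lower were still lower, 33.8% and 29.9%. Past 1.5-fold in the opposite direction at 4 hr were 13 of the entries higher at 1 hr (1.25%) and 67 of those lower (9.22%). Pearson's r over 9208 genes was 0.577. Sterol genes had a median of 1.59 at 4 hr, feedback genes of -1.63 and ETV genes of -3.52, against 1.13, -1.13 and -1.33 at 1 hr. *Etv5* had 0.492 FPKM with PD and 13.6 with LY at 4 hr, and *Spred2* 0.621 and 11.0. *Txnip* had 17.8 and 70.6, *Fosl1* 0.528 and 0.691, and *Ptgs2* 14.7 and 14.9, so the ratios of the last 2 were under 1.5-fold at 4 hr.

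PDGF alone was measured at 4 hr in 3 samples, and its values can be read beside those of the drugs. *Dusp6* had 0.996 FPKM with PD, 12.1 with LY and 10.9 with PDGF alone, and *Etv5* had 0.492, 13.6 and 12.5. For both genes the LY value was the closer to PDGF alone. For *Hmgcs1* the values were 219.9 with PD, 66.9 with LY and 234 with PDGF alone, so there PD was the closer. For *Txnip* (17.8, 70.6 and 18.5 FPKM) PD was also the closer. For *Cyp1a1* (3.87, 0.212 and 0.0711 FPKM) LY was the closer, and for *Nqo1* (68.8, 25.1 and 33.0 FPKM) likewise. These are values at 4 hr and do not show which drug moved a gene at 1 hr.

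**Figure D5:**
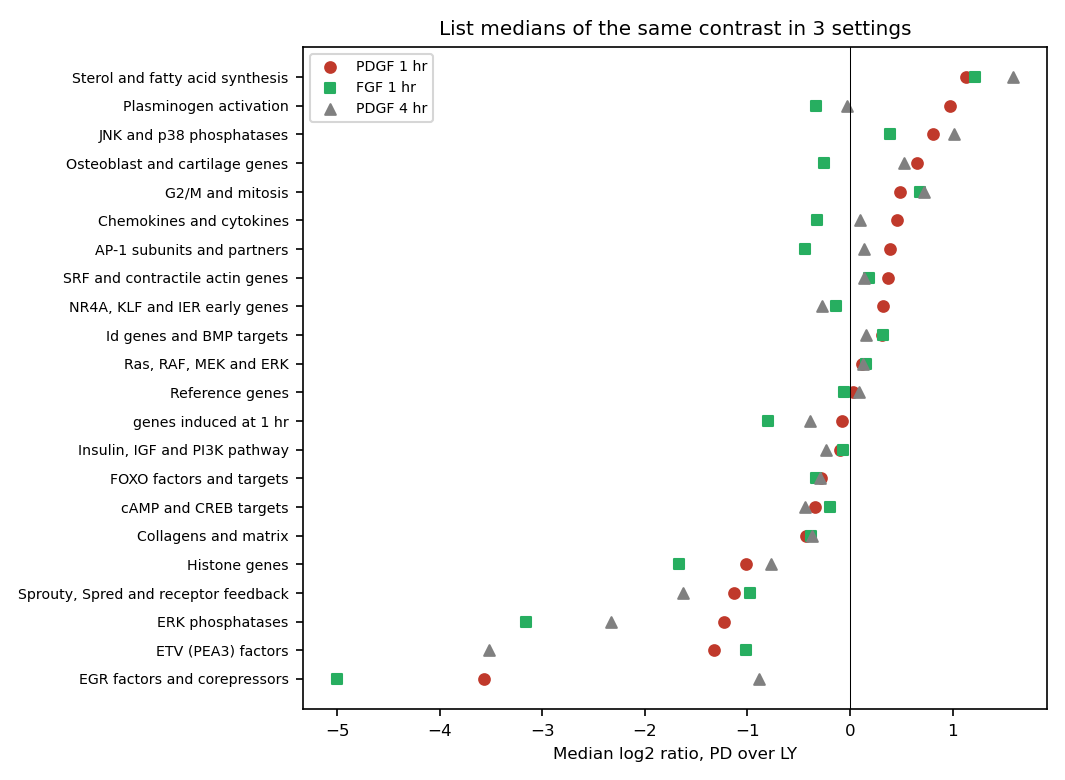
Median log2 ratio of PD over LY of gene lists for PDGF at 1 hr (red circles), FGF at 1 hr (green squares) and PDGF at 4 hr (grey triangles). Sterol genes lie between 1.13 and 1.59 in all 3, while the genes induced at 1 hr lie at -0.08, -0.80 and -0.39.

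Promoter letters were counted in the RefSeq windows of genes with FPKM of at least 5. Among all entries at that level 6.45% were higher with PD and 3.99% lower. Of 556 such genes with 1 symbol higher with PD, coding or not, 434 had a window. Of 344 lower 247 had one, and some genes held several windows. The CArG box was in 3.71% of 566 windows of genes higher with PD and in 1.02% of 293 windows of genes lower, against 1.63% of all 32851 windows. The sterol element was in 2.47% of the windows of genes higher with PD, 1.02% of those lower and 1.24% of all. The CRE (TGACGTCA) was in 3.89%, 1.37% and 1.79%, the ETS site (ACCGGAAG) in 2.47%, 4.44% and 2.30%, and the EGR site (GCGGGGGCG) in 4.24%, 6.14% and 2.91%. The AP-1 site (TGANTCA) was in 5.30%, 4.10% and 7.81%, the forkhead site in 3.00%, 3.07% and 3.65%, the E-box (CACGTG) in 11.1%, 8.53% and 7.15%, the TEAD site (GGAATG) in 12.9%, 11.6% and 14.7%, and the AHR site in 9.54%, 7.17% and 5.07%. In the 9071 windows of all genes with FPKM of at least 5, the shares were 1.36% for the CArG box, 3.15% for the CRE, 4.92% for the ETS site, 5.92% for the EGR site, 4.70% for the AP-1 site, 2.41% for the forkhead site, 1.11% for the sterol element, 10.6% for the E-box, 11.8% for the TEAD site and 8.38% for the AHR site. Both strands were searched. Only 1 of the 28 windows of sterol genes held the sterol element, and the letters of a window say nothing on sites outside it.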

How the data were processed

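RNA-seq was made from 22 samples of MEPM cells in 10 conditions. Per the labels, the authors used CASAVA, TopHat, Cuffdiff and the mm10 build; versions are not given in the sources used here. The authors deposited 1 FPKM per entry and condition, pooled over replicates by Cuffdiff, with no counts. The study gives a range of reads per sample, but the depth of each sample and the precision are unknown. An FPKM listed at exactly 0 can be a failed estimate. Another 3 columns of FPKM, from another series, were not used. The table names entries by RefSeq accession; 22875 of 23286 matched 1 symbol in RefSeq (GRCm38.p6) or GENCODE vM21.

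Ratios were FPKM with PD over FPKM with LY, with no pseudocount or rescaling, among entries above 1 FPKM in either condition. An entry above 1 FPKM in 1 condition only could be counted on that side alone. Past 1.5-fold was counted as higher or lower. Log2 ratios were limited to 5 in size for list medians. With 1 value per condition no test could be run. The 46 lists hold 723 genes, of which 8 had no entry of their own, and 5 lists were added after values were seen. The members and lists were chosen with earlier results of these data known. Named genes were the 15 largest ratios in each direction (1 symbol, coding, 5 FPKM or more in 1 of the conditions), up to 5 members of each list past 1.5-fold, members of the early gene lists, and the 10 largest ratios in each direction of the genes induced at 1 hr; other genes with values were chosen for their role after their values were seen. The share of 31-base words was calculated from GENCODE vM21 transcripts. Not every named gene with a sizeable share is flagged in the text, for example *Phlda1* (30.8%), *Irs1* (30.7%) and *Etv5* (30.3%). The motif search and the sequences used RefSeq windows. Alternatives were pseudocounts of 0.1 and 1, other FPKM minima, 2 rescalings, 1.3-fold, 2-fold and coding entries of 1 gene. Some genes are not reported here. The ratio procedure was tested on simulated data. Calculations used SciPy 1.17.1, pandas 2.3.3 and NumPy 2.4.6 in Python 3.11.15, with figures drawn in matplotlib 3.10.9.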

Additional observations from a re-analysis of the deposited data

How the results depend on the processing

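The table holds pooled values, so replicates could not be left out in turn. No paired analysis was possible because the 2 samples of a condition, which share replicate numbers across conditions in the labels, have 1 FPKM between them. The counts of entries higher and lower with PD, 1038 and 727, were 574 and 355 with FPKM of at least 5, 2716 and 2190 with no filter, 1965 and 1537 at 1.3-fold, and 372 and 226 at 2-fold. With a pseudocount of 1 the entries lower with PD were 414, and those higher were 725. With a pseudocount of 0.1, both rescalings and coding entries of 1 gene, both counts stayed within 1.5 times the values given. Dividing by the median ratio shifted log2 ratios by 0.005 and dividing by upper quartiles by 0.029. Of 215 named genes, of which 164 had FPKM of at least 5, 0 called ones changed direction, 84 lost their side at 2-fold, 19 with a pseudocount of 1 and 5 with upper quartiles. The median of AP-1 genes fell to 0.20 with FPKM of at least 5, against 0.39, that of the skeletal genes to 0.09, against 0.65, that of chemokines to 0.16, against 0.46, that of the ZFP36 list to -0.72, against 0.01, and that of the FOXO list passed -0.3 at -0.35, against -0.28. With a pseudocount of 1 the medians of EGR and ETV genes were -1.60 and -0.68, against -3.57 and -1.33. The depth of each sample is unknown, and folds of weakly expressed genes, such as *Cyp1a1* at 0.0739 FPKM with LY, rest on low values.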

Other observations

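Tubulin genes, listed after *Tubb3* (31.1 FPKM with PD and 9.66 with LY) had been seen among the larger ratios, were higher with PD in 6 of 10 cases and lower in 0. *Tuba1a* was at 365 and 204 FPKM, *Tubb6* at 183 and 96.1, and *Tubb2a* at 53.8 and 27.7, although 56.4% of the 31-base words of *Tubb2a* also occur in other genes. Heat shock genes *Hspa1a* (5.99 and 1.83 FPKM) and *Hspa1b* (23.6 and 10.6 FPKM) were higher with PD too, and 70.1% and 68.1% of their words are shared, so the 2 copies cannot be told apart. Clock genes were higher in 4 of 14 cases, among them *Bhlhe41* (3.65 and 1.24 FPKM) and *Nfil3* (43.4 and 19.9 FPKM). The Notch effector *Hes1* (19.1 and 37.1 FPKM), the receptor gene *Notch3* (16.2 and 29.0 FPKM) and the NF-kappaB brake *Tnfaip3* (0.443 and 1.98 FPKM) were lower with PD. Of YAP and TEAD targets 3 of 13 were higher, with *Ajuba* at 63.4 and 23.7 FPKM, and 1 was lower, the kinase gene *Nuak2* at 1.22 and 3.10.

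Among 8474 coding genes with FPKM of at least 5 with both ligands, 9 were higher with PD after PDGF and lower with PD after FGF by 1.5-fold or more, and 0 were the other way round. They were named after their values had been seen. *Ptgs2* had 45.1 FPKM with PD and 18.3 with LY after PDGF, and 121 and 186 after FGF. *Srf*, which encodes the factor of the CArG box, had 23.8 and 14.7 after PDGF, and 22.1 and 34.8 after FGF. *Hmox1* had 141 and 71.6 after PDGF and 91.7 and 138 after FGF, and *Srxn1*, also an oxidative stress gene, had 28.9 and 17.6 after PDGF and a log2 ratio of -1.16 after FGF. The others were *Dusp10*, *Atp5md*, *Ccdc85b*, *Rbis* and *Tac1*, and none of these differences could be tested.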
